A study of Mus musculus with 6 samples.

Results

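The 300 brightest circRNA probes of an array hybridised with mouse hippocampal RNA are described here. They were chosen by the mean of the deposited log2 values over all 6 arrays, after 20 probes that the study had listed for their change between the groups were left out, and they are 300 of the 14236 circRNA probes on the array. The RNA came from male C57Bl/6 mice aged 18 months. In the POCD group (postoperative cognitive dysfunction, 3 mice), an open tibial fracture was fixed with an intramedullary pin under isoflurane, and the hippocampus was taken on day 3. The control group (3 mice) is labelled as control, and the sources used here do not describe whether those mice were anaesthetised. Each array held the RNA of 1 mouse, all 6 arrays were read on 1 slide in 1 scan, and each was labelled in 1 colour. As a model, the groups hold 1 sex, 1 strain and 1 time after surgery.

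CircRNAs are closed loops of RNA that form when a splice donor joins an acceptor upstream of it. They have no free ends and resist exonucleases, so they outlast linear transcripts of the same genes and accumulate in tissues whose cells rarely divide. The brain is known to be rich in them, many arise from genes with roles at the synapse, and their amount in neural tissue is known to rise with age. A probe of such an array lies across the back-splice junction, which the linear transcript does not have.

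The brightness of a probe also depends on how well that probe binds, so a place among the 300 is a place in brightness and cannot be read as the amount of a circRNA in the tissue. For the same reason the label of abundant circRNAs was not taken over. The files pair the probes with identifiers only, not with circRNA names or host genes, so the probes are named by identifier, and markers of the hippocampus could not be looked up. In bulk tissue, fewer cells of a type and less RNA per cell cannot be told apart.

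The values that chose the 300 had a narrow edge. The probe just inside the limit, ASCRP4004313, had a mean deposited log2 value of 12.052, and the probe just outside it, ASCRP4004366, had 12.051. Of the 20 probes left out, 2 were bright enough to have been among the 300. These were mmu_circRNA_45921 (ASCRP4009404), at place 13 of all circRNA probes, and mmu_circRNA_34414 (ASCRP4011284), at place 48.

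All 300 were measured well within the range of the scanner. Every one of them was well above background on all 6 arrays, and 0 of them were saturated or marked as an outlier. The brightest spot of an array reached 21.8% to 33.5% of the saturation value. The dimmest of the 300 on each array was still 41.6 to 201 times as bright as its local background. Probes printed as 10 spots had a median SD of 0.042 on the log2 scale between the spots of 1 array. This is over 14 probes at least as bright as the dimmest of the 300 on their array, not matched further in brightness. The arrays differed in summed signal, which, in units of 1e6, was 8.83, 9.14 and 6.49 in POCD mice 1 to 3 and 9.90, 8.22 and 10.4 in control mice 1 to 3.

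The 300 probes held about as much of the summed signal as all other circRNA probes of the array together. Their share of the summed processed signal was 48.0%, 49.4% and 46.2% in the 3 POCD mice and 54.8%, 48.3% and 53.5% in the 3 control mice. The groups overlapped, because control mouse 2 lay below POCD mouse 2. The mean share was 47.9% ± 1.61 in POCD and 52.2% ± 3.42 in control (SD, n = 3 each), a difference of -4.30 percentage points that did not pass an exact two-sided permutation test (p = 0.20, where 3 mice against 3 cannot go below 0.10). With the 2 bright probes of the list put back, the difference was -5.16 percentage points.

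**Figure D1:**
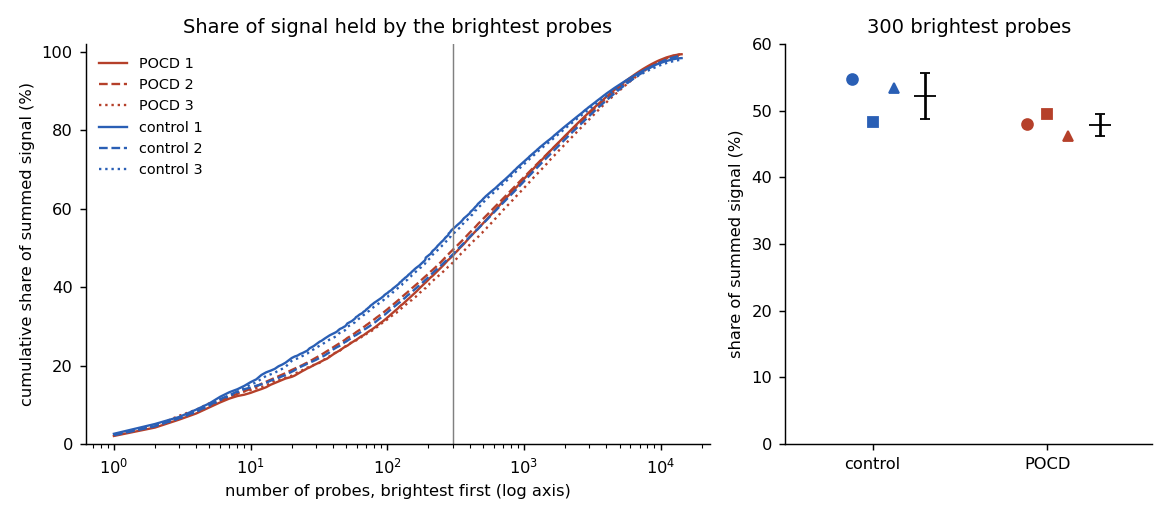
Left, the share of the summed processed signal (percent) held by the brightest circRNA probes, against the number of probes counted from the brightest (log axis), with 1 line per array and a vertical line at 300. Right, the share held by the 300 on each array with the mean and SD of each group. Control mice 1 and 3 lie at 54.8% and 53.5%, above the other 4 arrays, which lie between 46.2% and 49.4%.

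The signal was concentrated at the top of the 300. The single brightest probe held 2.08% to 2.63% of the summed signal over the 6 arrays, the 10 brightest held 13.1% to 15.8%, and the 100 brightest held 31.8% to 38.5%. The 10 brightest held 13.1%, 14.1% and 13.8% in the POCD mice and 15.8%, 14.4% and 15.2% in the control mice. Here the groups did not overlap, the difference was -1.49 percentage points, and the exact permutation p was 0.10, the smallest that 3 against 3 allows. Of the nested limits tried, only 10 reached it. The same permutation test gave p = 0.20 at 1, 50 and 100 probes and p = 0.30 at 1000 and 3000. Below the 300, the next 300 probes held 10.2% to 11.3%. Their share was 0.417 percentage points higher in POCD (exact permutation p = 0.10), opposite in sign to the 300.

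The places of the arrays on the slide were not balanced between the groups. The control arrays and that of POCD mouse 1 lay in slide row 1, while the arrays of POCD mice 2 and 3 lay in the other row, which held no control. Within row 1, the share of POCD mouse 1 was 4.21 percentage points under the control mean, close to the difference over both rows, but this rests on a single POCD array.

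The 5 probes with the highest means were bright on every array, and values are given on a scaled log2 scale, as the log2 processed signal minus the 75th percentile of its array. ASCRP4006710, at place 1, had 9.09, 9.24 and 9.18 in POCD and 9.75, 9.20 and 9.62 in control. The difference of POCD minus control was -0.35 (SE 0.17), and it was 0 with the deposited values. Its ranks, 1 or 2 on every array, had the narrowest range of the 300, as did those of 1 other probe. Control mice 1 and 3 were the high ones, and control mouse 2 lay among the POCD values.

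ASCRP4006342, at place 2, had the same arrangement, with 9.14, 9.22 and 9.08 in POCD and 9.67, 9.20 and 9.56 in control. ASCRP4004008, at place 3, had 9.05, 9.05 and 9.31 in POCD and 9.19, 9.06 and 9.15 in control, and its difference of 0.0066 was far inside the spread between mice. The remaining 2 of the 5 had groups that did not overlap.

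ASCRP4011502, at place 4, had 8.68, 8.74 and 8.54 in POCD and 9.26, 8.80 and 9.11 in control, a difference of -0.40. With the deposited values its difference was -0.13. ASCRP4013042, at place 5, had 8.67, 8.64 and 8.65 in POCD and 9.02, 8.71 and 8.95 in control, a difference of -0.24 that was 0.049 with the deposited values. Neither reached a fold change of 1.5. In both, control mouse 2 was the control nearest to the POCD mice. It lay only 0.059 above the nearest POCD mouse in ASCRP4011502 and 0.047 in ASCRP4013042. These gaps are near the median SD of 0.042 between spots of 1 array.

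The order of the 300 was kept from array to array to a degree that depended on the pair of arrays. Over the 15 pairs, Spearman's correlation of the 300 scaled values had a mean of 0.770 and ran from 0.498 to 0.975. It was highest between control mice 1 and 3 (0.975) and lowest between POCD mouse 3 and control mouse 1 (0.498). Control mouse 2 resembled POCD mouse 1 (0.921) and POCD mouse 3 (0.890) more than control mouse 1 (0.659) or control mouse 3 (0.701). POCD mouse 2 stood between these sets, with 0.858, 0.870 and 0.869 against the 3 controls. These correlations are descriptions across probes, which are not independent, and the arrays share 1 slide. Over all tested probes the mean was 0.978, since those span a far wider range of brightness, and over the next 300 probes it was 0.406.

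The places of the brightest probes barely moved, and places further down moved more. The difference between a probe's best and worst rank over the 6 arrays had a median of 2 for the 10 brightest, 38.5 for the rest up to place 100 and 124.5 for all after place 100. Of the 300, 204 were among the 300 brightest of every array and 297 were among the 1000 brightest of every array. On single arrays, 270, 283 and 253 of them were among the 300 brightest in the POCD mice and 256, 268 and 257 in the control mice. POCD mouse 3 and control mice 1 and 3 held the fewest.

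**Figure D2:**
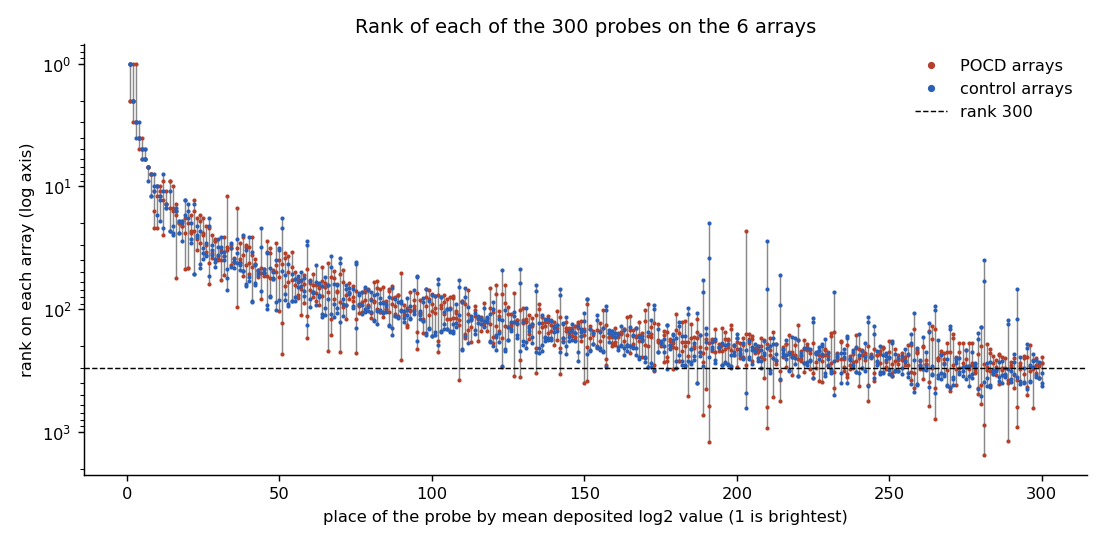
Rank of each of the 300 probes on each of the 6 arrays (log axis, 1 is the brightest) against its place by the mean that chose it, with a dashed line at rank 300. The ranks of the 10 brightest differed by a median of 2 over the arrays, and the spread widens to the right, where single ranks pass 1000.

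Ranks on an array that did not choose the members were looked up by choosing 300 probes from the other 5 arrays. Of 300 chosen in this way, 262, 279 and 244 were among the 300 brightest of the left-out POCD mouse, and 247, 265 and 249 among those of the left-out control mouse. Between 290 and 296 of the probes chosen without an array were also in the list chosen on all 6. A choice on the POCD arrays alone and a choice on the control arrays alone shared 259 probes, which is 86.3% of each. Choosing on the scaled processed signal instead of the deposited values kept 294 of the 300.

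The widest move in rank was that of ASCRP4005099, at place 281. Its processed signal was 1666, 4935 and 668 in the POCD mice and 28909, 3166 and 21032 in the control mice, a 38.1-fold range over the arrays. Its ranks were 869, 277 and 1543 in POCD and 40, 393 and 59 in control. Control mice 1 and 3 were far above the other 4 arrays, and the groups overlapped, because POCD mouse 2 lay above control mouse 2.

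Some of the 300 varied over the arrays far more than most. The range over the 6 arrays exceeded 2 on the log2 scale, or 4-fold, for 36 of the 300 (12%), for 20 of the next 300 (6.67%) and for 237 of the 13844 other tested probes (1.71%). It stayed within 1 for 206 of the 300. At the middle of the distribution the 300 were only slightly wider, with a median range of 0.67 against 0.63 for the next 300 and 0.61 for the others. The median SD within a group was 0.23, 0.21 and 0.21, several times the SD between spots of 1 array. The 300 thus held many quiet probes and a smaller set of variable ones.

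The 36 variable probes moved together. Of them, 20 were brightest in control mouse 1, 15 in control mouse 3 and 1 in POCD mouse 3, and 30 were dimmest in POCD mouse 3. Their median deviation from a probe's own mean over the arrays was -0.48, 0.20 and -1.30 in the POCD mice and 1.16, -0.66 and 1.13 in the control mice, on the scaled log2 scale. So control mice 1 and 3 were high, POCD mouse 3 was lowest, and control mouse 2 was on the low side with POCD mice 1 and 3. Their fold ranges ran from 4.19 to 45.4 with a median of 5.76. They were spread over places 10 to 292, and 9, 12, 6 and 9 of them lay in the 4 quadrants of the array, against 72, 81, 73 and 74 of all 300.

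Because they were picked out by their spread after their values were seen, the 36 are a description and were given no test. The arrangement with control mice 1 and 3 above a probe's own mean and POCD mice 1 and 3 and control mouse 2 below it was found in 98 of the 300 (32.7%), in 64 of the next 300 (21.3%) and in 12.2% of the others. Among probes with a range over 2, it was found in 34 of the 36, in 18 of 20 of the next 300 and in 164 of 237 of the others. The arrangement was thus also common among variable probes outside the 300. In a principal component analysis of the deviations of the 300, the first component held 84.6% of the variance, with array scores of -4.93, 0.54 and -10.4 for POCD and 9.97, -4.14 and 9.0 for control. On the deposited values it held 78.7%.

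**Figure D3:**
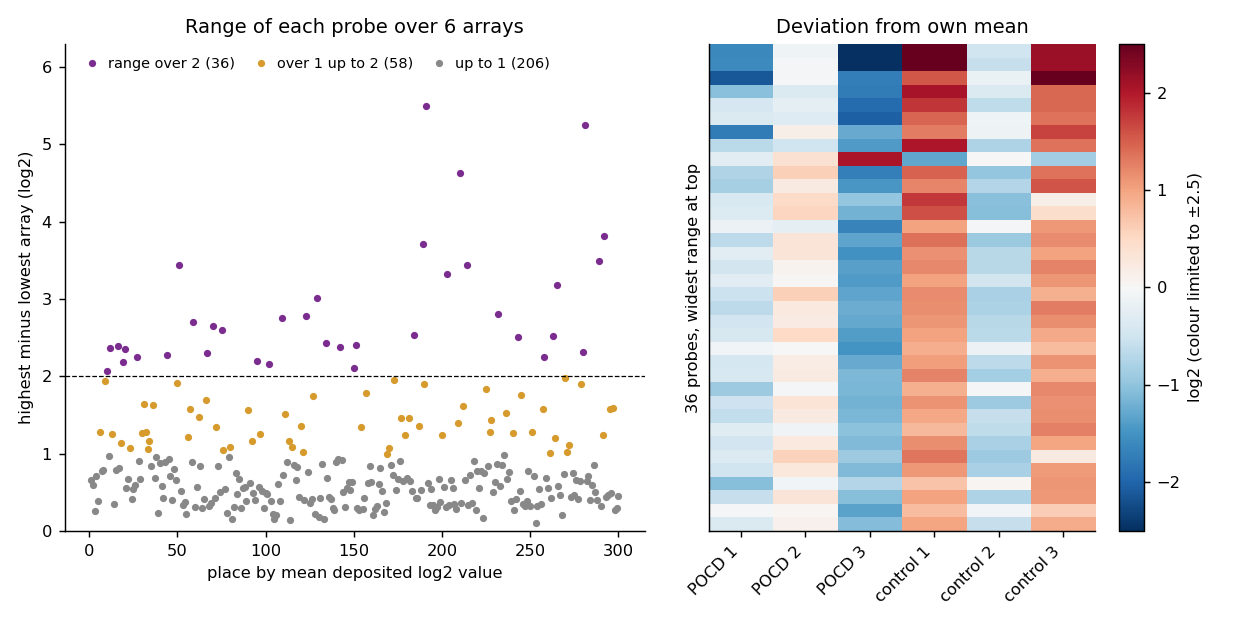
Left, the range of each of the 300 probes over the 6 arrays (log2) against its place by mean brightness, with the 36 probes over 2 marked. Right, the deviation of each of the 36 from its own mean (log2, colour scale) on each array, where control mice 1 and 3 are high for 35 of the 36 and POCD mouse 3 is lowest for 30.

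The share of the summed signal is described for the 300 by their range over the arrays, with no test, since a difference between the groups itself widens that range. The 36 variable probes held 4.08%, 6.38% and 3.00% in the POCD mice and 10.8%, 4.32% and 10.5% in the control mice, a difference of -4.06 percentage points. The 58 probes with a range over 1 and up to 2 held 8.09%, 9.46% and 7.45% in POCD and 11.3%, 8.54% and 11.2% in control, a difference of -2.03. In both sets control mice 1 and 3 were the highest, and control mouse 2 lay among the POCD mice. The 206 probes with a range up to 1 lay the other way, with 35.8%, 33.6% and 35.8% in POCD and 32.6%, 35.4% and 31.7% in control, a difference of 1.79. The groups overlapped in all 3 sets. The summed signal of all probes outside the 300, in units of 1e6, was 4.59, 4.62 and 3.49 in the POCD mice and 4.48, 4.25 and 4.82 in the control mice, lowest in POCD mouse 3 and highest in control mouse 3, and its part in this arrangement was not tested.

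POCD was then compared with control for the scaled values of the 300 against those of all other probes. The median difference of POCD minus control was -0.21 for the 300, with quartiles of -0.50 and 0.05, and -0.03 for all other tested probes, while with the deposited values the median of the 300 was 0.08. On the scaled values it was lower in POCD for 208 of the 300 (69.3%) and for 54.1% of the others. It was most negative for the 50 brightest, with a median of -0.38, and it was -0.06 for the last 50 of the 300. For the next 300 probes the median was -0.05. In successive groups of 300 from there to place 6000 it lay between -0.05 and 0.04. Among the dimmest probes it fell again, to -0.18 and -0.17 in the groups from places 13501 and 13801. It was -0.26 in the last group, of 33 tested probes. A lower median was thus not particular to the 300.

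Taken per mouse, the difference did not exceed the spread within groups. The median of the 300 minus the median of all others was 6.16, 6.05 and 5.88 in the POCD mice and 6.40, 5.99 and 6.34 in the control mice, on the log2 scale. Control mouse 2 lay below POCD mice 1 and 2, so the groups overlapped. The shift of -0.21 had an exact two-sided permutation p of 0.30. Against the next 300 instead, the shift was -0.17 (exact permutation p = 0.20). Within slide row 1 it was -0.08, the value of POCD mouse 1 minus the control mean.

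The direction of the shift depended on the scaling. On the deposited values, the median difference was 0.08 for the 300 and 0.02 for all others, and 179 of the 300 were higher in POCD. The share computed from the deposited values was 0.695 percentage points higher in POCD (exact permutation p = 0.10). With a quantile normalization the median difference of the 300 was 0.09, near that of the deposited values, whose normalization is not given. Quantile normalization gives every array the same distribution of brightness by construction, so the brightest probes as a set cannot move in it by much. Scaling by a percentile adds 1 constant per array and leaves the distance of the 300 from other probes as measured. No direction of the set is therefore given here.

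**Figure D4:**
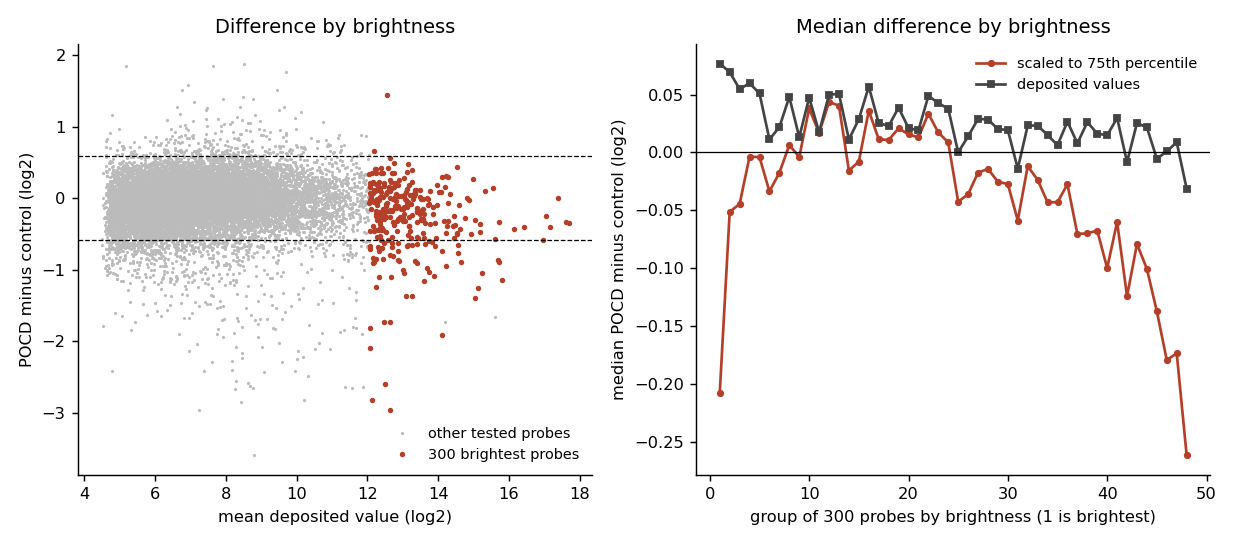
Left, the difference of POCD minus control (log2, scaled intensities) of each tested probe against its mean brightness, with the 300 marked and dashed lines at a fold change of 1.5. Right, the median difference in successive groups of 300 probes in order of brightness, with scaled intensities and with the deposited values. The brightest 300 lie at -0.21 with scaled intensities and at 0.08 with the deposited values. The dimmest group lies at -0.26 with scaled intensities.

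Few of the 300 passed the thresholds of the study (at least 1.5-fold, with a p under 0.05 before adjustment) in limma. With scaled intensities, 2 of the 300 were higher in POCD, or 0.667%, where 1.82% of all tested probes were. In the other direction 26 were lower, or 8.67%, where 4.81% of all tested probes were. Of these 26, 14 were among the 36 variable probes and 0 among the 206 with a range within 1, a split that the difference between the groups partly decides. At a Benjamini-Hochberg adjusted p of 0.05 in limma, 0 of the 300 and 0.0% of all tested probes passed, and the smallest adjusted p among the 300 was 0.30. At an unadjusted p under 0.05, 46 of the 300 (15.3%) passed, where 14.5% of all tested probes did. The methods' t-test on the deposited values also left 0 after adjustment, with 18 (6.0%) at an unadjusted p under 0.05, where 7.61% of all tested probes were. The median SE of a difference was 0.18 and the median 95% interval reached 0.41 to either side, so many smaller differences were not detectable with 3 mice a group.

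With the deposited values, 15 of the 300 were higher and 11 were lower, where 1.56% and 2.39% of all tested probes were. In both sets of values 13 of the 300 were called the same way, 2 of them higher and 11 lower. Groups of scaled values that did not overlap were found for 9 of the 300 with every POCD mouse higher (3.0%) and for 24 with every POCD mouse lower (8.0%), where 6.23% and 11.0% of all tested probes had them. Among the 300, 1 higher and 6 lower probes both passed the thresholds and had groups that did not overlap. For these and for the 13 called the same way, no share over all tested probes is given, so neither count is read as a property of the 300. With scaled values, groups that did not overlap were therefore not more common among the 300 than among all tested probes. The deposited values gave 30 of the 300 with every POCD mouse higher and 13 with every POCD mouse lower. No share over all tested probes is given for those counts, so whether they were more common among the 300 was not tested. By the thresholds, the deposited values called 5.0% of the 300 higher and 3.67% lower, both above the shares of all tested probes. The shares of called probes thus gave no single direction for the 300.

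Single arrays moved these counts. Without control mouse 2, 79 were lower (26.3%) and 4 higher (1.33%), where 9.17% and 4.71% of all tested probes were. In that fit 38 passed an adjusted p of 0.05 in limma, where 3.92% of all tested probes did. The count of lower probes was 47 without POCD mouse 2 and 16 without POCD mouse 3, beside 6.79% and 3.61% of all tested probes. It was 10 without control mouse 1 and also 10 without control mouse 3, beside 3.56% and 2.82%.

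With arrays weighted by how well they fit their group, 61 were lower (20.3%), where 6.78% of all tested probes were, and 10 passed an adjusted p of 0.05 in limma, where 4.2% of all tested probes did. Those weights were 0.652, 1.96 and 0.423 for POCD mice 1 to 3 and 1.36, 0.457 and 2.97 for control mice 1 to 3, so control mouse 2 was weighted down among the controls. With the slide row in the fit, 6 were higher (2.0%) and 12 lower (4.0%), where 0.997% and 5.06% of all tested probes were. In that fit the share of lower probes among the 300 was thus no longer above that of all tested probes.

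Among probes that passed the thresholds with groups that did not overlap, the lower ones with the largest difference were ASCRP4002387 and ASCRP4007241. ASCRP4002387, at place 289, had scaled values of 3.43, 3.47 and 1.76 in POCD and 5.25, 3.69 and 5.14 in control, a difference of -1.81 (SE 0.53). Its ranks were 397, 380 and 1178 in POCD and 122, 304 and 133 in control. Control mouse 2 lay only 0.22 above the nearest POCD mouse. With the slide row in the fit, which sets only POCD mouse 1 against the controls, the difference was -1.27.

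ASCRP4007241, at place 20, had 5.82, 6.69 and 5.58 in POCD and 7.62, 6.70 and 7.93 in control. Its difference was -1.39 (SE 0.36, adjusted p = 0.30 in limma). Control mouse 2 and POCD mouse 2 were only 0.013 apart, less than the SD between spots of 1 array, so the separation of the groups in this probe is within spot error.

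ASCRP4008464, at place 271, was the single probe of the 300 that was higher by the same rule. It had 4.52, 3.82 and 4.35 in POCD and 3.50, 3.49 and 3.71 in control, a difference of 0.66 (SE 0.20, adjusted p = 0.30 in limma). All POCD mice lay above all control mice, the nearest by 0.11, and without POCD mouse 1 the difference was 0.52, under a fold change of 1.5. The 3 controls were close together here, unlike in the lower probes. The ranks of ASCRP4008464 were 170, 285 and 160 in POCD and 412, 353 and 368 in control. It was thus among the 300 through the POCD mice, and its difference is likewise a description only.

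ASCRP4005099, whose ranks moved the most, had 2.31, 3.85 and 1.32 in POCD and 6.57, 3.32 and 6.04 in control, a difference of -2.82 (SE 0.85). With the slide row in the fit, again only POCD mouse 1 against the controls, the difference was -3.0. ASCRP4004313, just inside the limit, had 3.91, 3.86 and 3.85 in POCD and 3.47, 3.58 and 3.57 in control. Its difference of 0.33 did not reach a fold change of 1.5, although the groups did not overlap. Its ranks were 274, 274 and 244 in POCD and 423, 331 and 397 in control, so it was among the 300 through the POCD mice.

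**Figure D5:**
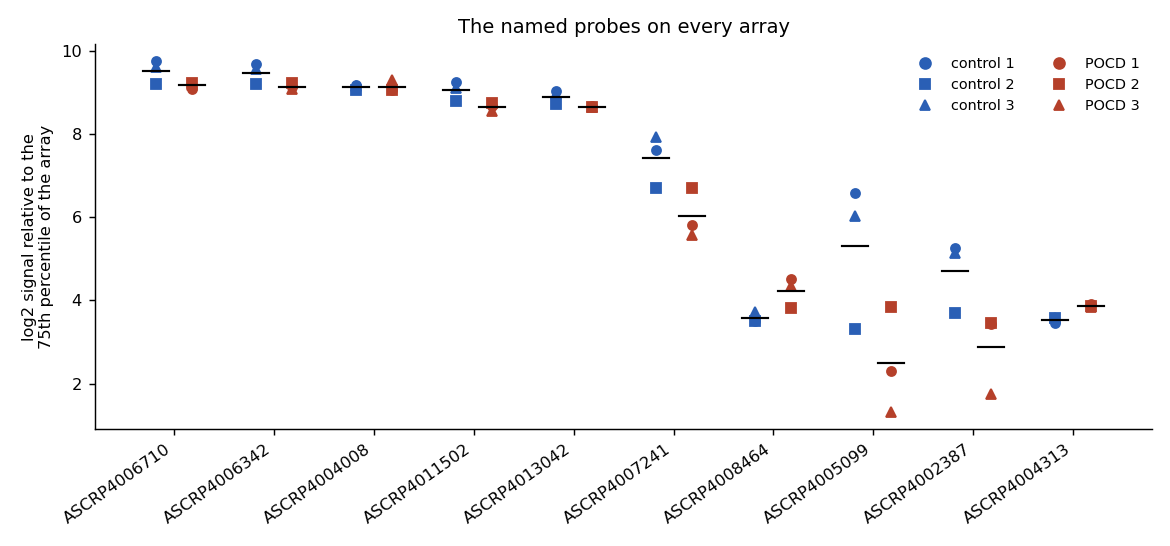
Scaled log2 processed signal of the probes named in the text on each array, with points for the mice and a line at the mean of each group (n = 3 each). In ASCRP4007241 and ASCRP4002387 control mouse 2 lies near the POCD mice, and in ASCRP4008464 all POCD mice lie above the controls.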

How the data were processed

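Total hippocampal RNA of 6 mice was labelled with Cy3 and hybridised to a 1-colour circRNA array. The authors deposited, for each array, Agilent Feature Extraction (version 11.0.1.1) intensity values, including the background-subtracted processed signal. A second deposited file holds normalized log2 values of the 14236 circRNA probes, and how it was normalized is not given in the sources used here. The probe sequences were not used here.

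The 300 probes were selected on the deposited log2 values. The members and lists were chosen with earlier results of these data known. Control spots were left out, and each circRNA probe was 1 spot. The log2 processed signal minus the 75th percentile over circRNA probes gave the scaled values. Outlier spots were left out of the scaled values but kept in the shares and the array ranks. Shares used the linear processed signal. A probe entered the tests if 3 or more of the 6 arrays showed it well above background (14144 did), and these were tested with limma 3.58.1 (lmFit and eBayes, R 4.3.3), with p-values adjusted by Benjamini-Hochberg over all of them. The fit was also run on simulated data in which probes varied independently, so that run does not test it where probes move together. Values per array were compared by exact two-sided permutation. The named probes were the 5 brightest, up to 2 higher and 2 lower of largest change that passed a fold change of 1.5 and p of 0.05 with no overlap, those either side of the limit, and those with the smallest and largest range of ranks. Groups came from the labels, with each array a separate mouse. Equally numbered mice were not paired in the labels. The number of arrays limits the precision. Alternatives were other scalings, filters, limits on the number of probes, array weights, blocks and leaving out each array.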

Additional observations from a re-analysis of the deposited data

How the results depend on the processing

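The share of the 300 (-4.30 percentage points, POCD minus control) and their shift against all other probes (-0.21, log2) changed sign with another normalization. With the deposited values the share was 0.695 and the shift 0.028, and with quantile normalization the shift was 0.019. Quantile normalization sets the distributions of brightness equal, and how the deposited values were normalized is not given. With the processed signal, the share and the shift kept their sign when any array was left out (share -6.23 to -3.01, shift -0.34 to -0.13). The counts of higher and lower probes (2 and 26) became 14 and 11 with quantile normalization, 15 and 11 with the deposited values, and 6 and 1 with the methods' t-test on those values. They became 6 and 12 with the slide row as a block, and array weights gave 61 lower and 10 past an adjusted p of 0.05 in limma. Limits of 100 and of 1000 probes gave 0 and 11, and 22 and 63. With scaled intensities, 1.82% and 4.81% of all tested probes were called higher and lower. Quantile normalization called 4.67% of the 300 higher and 3.67% lower, beside 2.59% and 3.59% of all tested probes. The methods' t-test called 2.0% and 0.333% of the 300, beside 0.622% and 0.255%. In both, the share of higher probes was thus larger among the 300, unlike with scaled intensities. When single arrays were left out, 1 to 6 were higher, 10 to 79 lower and 0 to 38 past the adjusted p in limma. The causes were not tested. Of 160 values of 10 named probes under alternatives, 144 kept their direction and their side of the thresholds, 6 kept their direction but no longer passed, 2 went to 0 and 8 changed sign. The 6 were values of ASCRP4002387, ASCRP4005099 and ASCRP4008464. The sign changes were in 2 probes that had not passed. ASCRP4013042 went from -0.24 to 0.049 with the deposited values (limma and the methods' t-test) and to 0.030 with quantile normalization. ASCRP4004008 (0.0066) went to -0.027 with normexp, -0.079 with the slide row as a block and -0.063 with array weights, and it ran from -0.080 to 0.051 when single arrays were left out.

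Equally numbered mice did not deviate together (correlations of 0.011, -0.55 and -0.23 over all probes), and 0 of the 6 arrays correlated best with its own number. With the replicate number as a block, 2 of the 300 were higher and 36 lower, where 2.0% and 5.18% of all tested probes were. In that fit 0 of the 300 passed an adjusted p of 0.05 in limma (0 without the block). Only 3 mice a group, 1 slide and a row without controls limit every comparison, and brightness is not abundance.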
